A study of Mus musculus with 9 samples.

Results

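The proteins of the cytosolic ribosome are encoded by a large set of genes spread over 19 chromosomes, and their messenger RNA was measured in area CA1 of the mouse hippocampus. Members were chosen by gene symbol (Rpl for the large subunit, with the stalk genes Rplp0, Rplp1 and Rplp2, and Rps for the small subunit, with Rpsa; rows with -ps in their name left out) and by level, with 1 FPKM or more on average over the 9 libraries. FPKM counts sequenced fragments, divided by transcript length and by the depth of the library, so levels are per length. Between members they can be set side by side only with caution, because most members share sequence with other genes, as described further on. The symbols of 85 genes matched and 82 reached the level, 49 of the large and 33 of the small subunit, among 12327 genes that reached it in the table of 24489 rows. All 77 core subunit genes that fit the naming were members, and the other 5 were the paralogs Rpl36al, Rpl22l1, Rpl7l1, Rps4l and Rps27l. Rps4l is kept because its symbol fits the rule, although RefSeq lists it as a transcribed pseudogene. Of the matches, Rpl3l (0.174 FPKM), Rpl39l (0.144 FPKM) and Rpl10l (0.00621 FPKM) fell below the level, and Rpl26 (1.11 FPKM) and Rpl21 (2.35 FPKM) lay just inside it.

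The libraries form 3 groups of 3, each library labelled as a biological replicate. Trained libraries came from mice given an adeno-associated virus (AAV) that carries a short hairpin RNA (shRNA) against H2A.Z, a variant of histone H2A, and then trained in contextual fear conditioning, in which mice learn to link a place with a foot shock. Naive libraries came from mice with the same H2A.Z virus and no training. Control libraries came from mice with an AAV that carries a scrambled shRNA. All mice were C57BL/J6, 9 to 12 weeks old. Whether the control mice were trained, the promoter of the hairpin, the time between training and dissection, and any pooling of animals are not given in these sources.

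Each ribosome is built from a small subunit, which reads the messenger RNA, and a large subunit, which joins the amino acids. Each subunit protein is needed in about equal number, and in mammals most of them are made from a single working gene beside many processed pseudogenes. Their messenger RNAs belong to the terminal oligopyrimidine (TOP) class: they begin with a C followed by a run of pyrimidines, and the protein Larp1 and the kinase mTOR control their translation through that run. In neurons ribosomes also sit in dendrites, near synapses, where local protein synthesis is studied in relation to memory.

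The gene that the hairpin targets was checked first. H2afz, which encodes the main H2A.Z protein, had 28.5, 23.9 and 25.8 FPKM in the trained libraries, 25.1, 27.8 and 28.0 FPKM in the naive libraries and 26.1, 28.7 and 26.4 FPKM in the control libraries. The groups overlapped, and the log2 fold change on log2(FPKM + 1) was -0.03 for both H2A.Z shRNA groups against control (limma, p adjusted over the whole table by Benjamini-Hochberg, adjusted p = 0.844). H2afv, which encodes the other H2A.Z protein, gave -0.01 (limma adjusted p = 0.939). Neither target RNA passed the test, so trained and naive stand here for the libraries labelled H2A.Z shRNA and not for a measured loss of H2A.Z RNA. The tissue label was checked too: all 11 markers of CA1 pyramidal neurons were tested and detected, with sums of 309 to 382 FPKM in trained, 294 to 335 FPKM in naive and 331 to 451 FPKM in control libraries. Markers of other cells were present as well, among them choroid plexus genes, whose sum reached 803 FPKM in control 3, against a sum of 41.7 FPKM in the lowest control library. Sums of 17 dentate granule markers were 207 to 346 FPKM in trained, 292 to 375 FPKM in naive and 156 to 302 FPKM in control libraries. Those of 10 CA2 and CA3 markers were 186 to 254, 227 to 274 and 176 to 220 FPKM in the same order. Detection of CA1 markers thus does not show that the tissue was CA1 alone. In whole tissue, fewer cells of a type and less RNA per cell cannot be told apart. From the steps between low FPKM values, the libraries were estimated to hold about 18500000 to 26400000 fragments each, and the median member rested on about 664 fragments per library.

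Many of these genes start at or near the pyrimidine run that gives the TOP class its name. Of the members, 61 had 1 or more starts in the RefSeq promoter table (GRCm38.p6), 72 starts in all. A C at the start followed by at least 4 pyrimidines (C or T) stood at 13 of these members (21.3%), against 3.01% of the 27025 genes in that table. A run of at least 8 pyrimidines within 25 bases of a start was found in 32 members (52.5%), against 22.3% of all genes. The windows below run from 60 bases before the start to 25 bases after it, on the strand of the gene, with the longest pyrimidine run near the start in capitals. They are shown for a large subunit gene of high level (Rpl4, chr9:64173327-64173411, plus strand), a small subunit gene (Rps18, chr17:33955641-33955725, minus strand), a stalk gene (Rplp2, chr7:141447591-141447675, plus strand), a gene of low level (Rpl28, chr7:4792905-4792989, plus strand), and for 2 paralogs and 1 partner described further on (Rpl22l1, chr3:28805448-28805532, plus strand; Rps27l, chr9:66946026-66946110, plus strand; Rps27, chr3:90213624-90213708, minus strand). They were chosen after values and sequences had been seen.
Rpl4: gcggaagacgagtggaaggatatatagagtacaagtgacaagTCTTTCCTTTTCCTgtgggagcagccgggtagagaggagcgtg
Rps18: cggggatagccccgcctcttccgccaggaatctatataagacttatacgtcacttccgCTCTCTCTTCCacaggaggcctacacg
Rplp2: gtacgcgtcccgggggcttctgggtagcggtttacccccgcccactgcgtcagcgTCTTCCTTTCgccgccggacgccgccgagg
Rpl28: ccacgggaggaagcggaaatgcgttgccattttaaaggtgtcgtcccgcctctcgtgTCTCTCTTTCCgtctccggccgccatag
Rpl22l1: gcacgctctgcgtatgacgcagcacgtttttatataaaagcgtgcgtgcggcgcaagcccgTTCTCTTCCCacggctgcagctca
Rps27l: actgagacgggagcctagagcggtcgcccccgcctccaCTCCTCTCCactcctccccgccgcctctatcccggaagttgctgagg
Rps27: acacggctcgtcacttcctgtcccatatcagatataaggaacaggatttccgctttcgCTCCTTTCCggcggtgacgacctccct
The run spans the annotated start in Rps18, Rplp2, Rpl28 and Rps27, begins just after it in Rpl22l1, and lies wholly before it in Rpl4 and Rps27l. Its length was 14 bases in Rpl4, 11 in Rps18 and Rpl28, 10 in Rplp2 and Rpl22l1, and 9 in Rps27 and Rps27l. Over all matched members the longest run near a start had a median of 9 bases and reached 21 bases, against a median of 5 bases for all genes.

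Other letters near these starts also differed in frequency from those of all genes. CCGGAA, the core that ETS family factors such as Gabpa can bind, was found on either strand in the window of 300 bases (250 before and 50 after the start) in 34 of 61 members (55.7%), against 16.7% of all genes. AAGATGG on either strand, the core that Yy1 can bind, stood in 10 members (16.4%), against 7.28%. TATAA between 40 and 16 bases before a start stood in 5 members (8.20%), against 4.22%. The median GC content of the windows was 58% in members and 52.8% in all genes. By position, a pyrimidine stood at the annotated start in 47.5% of members and 29.4% of all genes, and 4 bases after it in 75.4% of members and 51.2% of all genes. These are matches of letters, and no binding was measured.

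**Figure D1:**
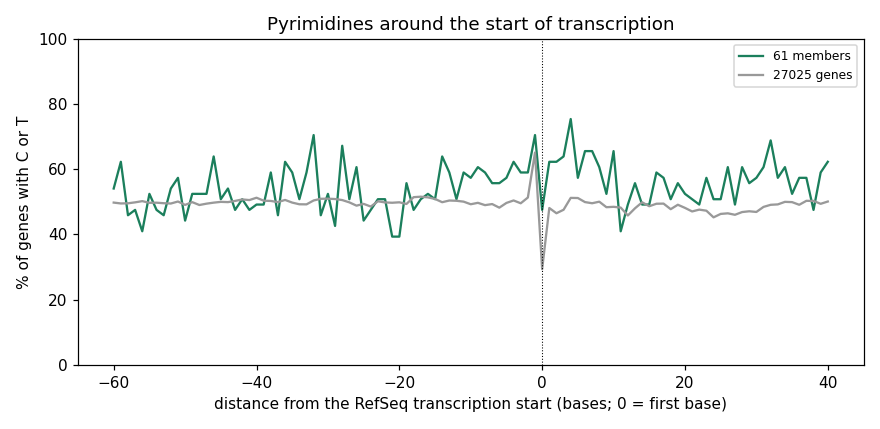
The plot gives the percentage of genes with a pyrimidine (y axis) at each base from 60 before to 40 after the annotated start (x axis), for the 61 matched members and for all 27025 genes. The member line is the higher one over the first bases after the start, with 75.4% of members and 51.2% of all genes 4 bases after it.

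Levels of the members differed far more between genes than between groups. The median member had 36.5 FPKM over all libraries, with medians of 33.8 FPKM for large subunit genes and 43.6 FPKM for small subunit genes. At least 100 FPKM was reached by 14 members, 47 lay from 20 to 100 FPKM, and 21 lay under 20 FPKM. Together the members held 1.79, 1.80 and 1.74% of all FPKM outside small RNA rows in the trained libraries, 1.76, 1.91 and 1.90% in the naive libraries, and 1.67, 1.73 and 1.77% in the control libraries. The trained and naive ranges each overlapped the control range.

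The highest member was Rplp1, which encodes one of the acidic proteins of the stalk that recruits elongation factors (chr9:61913284-61914542 on GRCm38, GENCODE M21). It had 296, 295 and 294 FPKM in the trained libraries, 301, 330.4 and 338 FPKM in the naive libraries and 264, 288 and 318 FPKM in the control libraries. Naive values began above the highest trained one, and both ranges overlapped the control range. Rps15, a protein of the head of the small subunit (chr10:80292453-80294114), followed with a mean of 273 FPKM, and had 262, 274 and 253 FPKM in the trained libraries, 269.8, 298 and 308 FPKM in the naive libraries and 241, 258 and 292 FPKM in the control libraries. Rpl41 (chr10:128548114-128549305), with the shortest coding sequence of all members (75 bases), had a mean of 266 FPKM. Rpl8 had 250.3 FPKM, Rps14 203 FPKM and Rpl4, a large subunit protein that lines the exit tunnel, 198 FPKM. These 6 genes held 29.9% of the summed FPKM of the members. For the same 6 genes, log2 fold changes lay from 0.02 to 0.16 for naive against control, from -0.06 to 0.06 for trained against control and from -0.15 to -0.09 for trained against naive, and none passed the test (smallest limma adjusted p = 0.245).

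At the other end, Rpl26 was listed at 0 in 8 libraries and at 1.11 FPKM on average, since control 3 alone had 9.95 FPKM. Rpl26 encodes a protein at the surface of the large subunit near the exit tunnel (chr11:68901583-68906989). An exact 0 in this table may be a failed estimate, which was not tested. No fold change is given for Rpl26, and a copy row with much of its sequence is described further on. Rpl26 reached the level only through control 3, and it stays in the member counts and medians given further on. Without Rpl26, the median log2 fold change of the 81 others was 0.10 for naive against control and 0.02 for trained against control. It was -0.08 for trained against naive and 0.06 for both H2A.Z shRNA groups against control. Rpl21 had 2.10, 2.16 and 2.60 FPKM in the trained libraries, 2.15, 2.50 and 2.66 FPKM in the naive libraries and 2.14, 2.74 and 2.11 FPKM in the control libraries, and its groups overlapped. Rps27, a zinc finger protein of the small subunit (chr3:90212522-90213651), had 4.76, 5.31 and 4.33 FPKM in the trained libraries, 5.19, 6.17 and 5.37 FPKM in the naive libraries and 5.46, 4.27 and 6.32 FPKM in the control libraries, on an estimated 28 to 56 fragments per library. Rpl27, Rpl28 and Rpl36a had means of 7.04, 7.63 and 8.10 FPKM. For these 5 low members other than Rpl26, log2 fold changes lay from -0.09 to 0.06 for naive against control, from -0.16 to 0.01 for trained against control and from -0.18 to 0.08 for trained against naive (smallest limma adjusted p = 0.563). Between Rplp1 and Rpl21 the mean level differed 129-fold, although the ribosome holds these proteins in similar number. Other genes share 60.4% of the coding stretches of 50 bases of Rplp1 and 100% of those of Rpl21, so this ratio is uncertain.

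**Figure D2:**
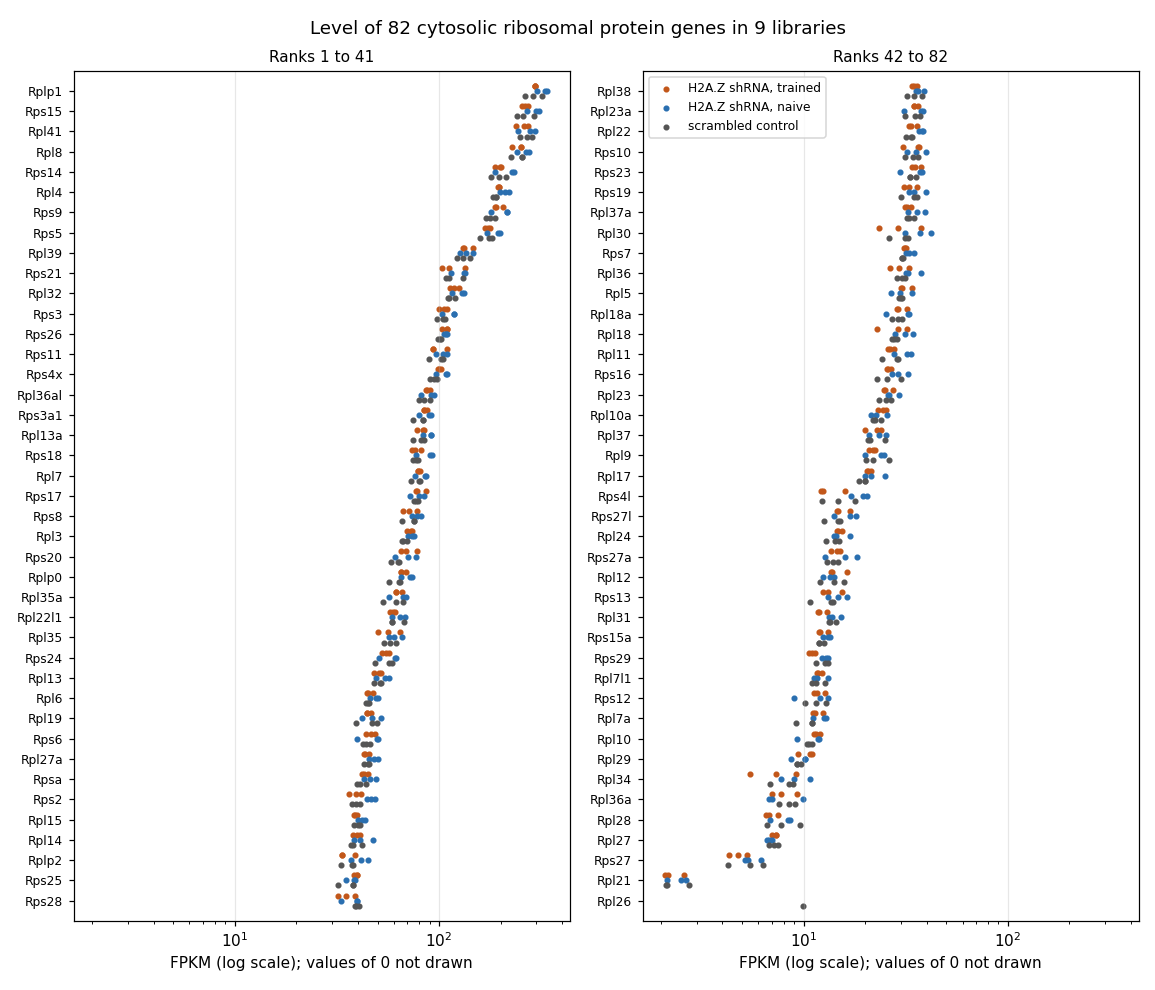
Each of the 82 members is plotted by its FPKM in each of the 9 libraries (log axis), ordered by mean level and coloured by group. Points of one gene lie close together beside the distance between genes, from Rplp1 at 303 FPKM down to Rpl21 at 2.35 FPKM, and Rpl26 is shown as listed at 0 in 8 libraries.

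Low levels went with sequence that other genes share. Each member's coding sequence was cut into all its stretches of 50 bases, the read length, and the share of stretches that also occur in another annotated gene was counted (81 members with a coding transcript; Rps4l had none). The median share was 91.6%, and 30 members had no stretch of their own. The median member shared a stretch with 8 pseudogenes, and Rpl7a shared one with 120. Members with under 50% shared had a median of 120.0 FPKM (n = 12), those from 50% to under 90% 48.6 FPKM (n = 24), those from 90% to under 100% 37.4 FPKM (n = 15), and those with 100% shared 24.9 FPKM (n = 30). Across the 81 genes the shared percentage and the level gave Spearman's rho = -0.48 (and Pearson's r = -0.46 with log2 level), a description over genes of the same libraries. How the authors' alignment placed reads that fit several places is not stated in the labels or notes, so the level of every member with a high share is uncertain.

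Rows of several copies held levels above that of the member. Rpl26 shares 74.1% of its stretches with Gm15772. Rpl26 was listed at 0 in all libraries but control 3, while the Gm15772 row lay between 81.2 and 104.1 FPKM in all 9. Rpl14, a large subunit protein, had a mean of 40.2 FPKM and the row Rpl14-ps1 (77.7% of stretches shared) 233 FPKM. Rpl31 had 13.3 FPKM and Rpl31-ps12 (62.0%) 84.3 FPKM. Rpl34 had 8.18 FPKM and Rpl34-ps1 (72.2%) 46.8 FPKM. In each of these pairs the copy lay above the member in all 9 libraries, and over the 11 pairs examined this was so for 7. The others among the 7 were Rps15a with Rps15a-ps4 (12.5 FPKM for the member and 35.2 FPKM for the copy), Rps23 with Gm5148 (34.8 and 78.9 FPKM) and Rpl22l1 with Gm15421 (61.5 and 70.7 FPKM). Gm5148 is annotated as a protein coding gene that shares 91.8% of the stretches of Rps23. Copies did not lie above the member for Rps26 with Gm6654 (105.5 FPKM for the member and 20.4 FPKM for the copy) or for Rps19 with Rps19-ps3 (34.1 and 7.30 FPKM) in any library. The pairs were chosen after values had been seen. The row Rplp2-ps1 (mean of 132.6 FPKM, against 37.5 FPKM for Rplp2) was not among them. Since FPKM keeps no reads, fragments of a member and of its copies cannot be told apart here.

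**Figure D3:**
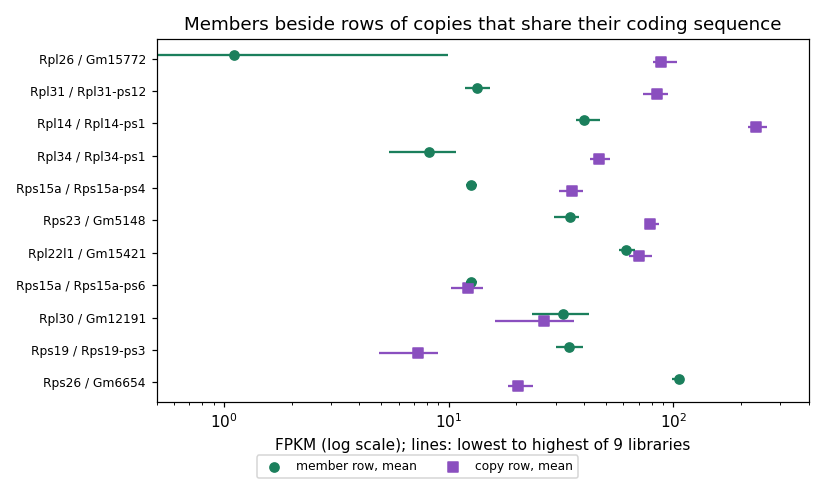
Means over 9 libraries (log axis, FPKM) are shown for a member row and for a row of a copy that shares part of its coding sequence, and lines run from the lowest to the highest library (Rpl26 from the left edge, since it is listed at 0). In 7 of the 11 pairs the copy lies above its member in all libraries, most of all for Rpl26 (1.11 FPKM) and Gm15772 (87.7 FPKM).

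Within each group the members varied together from library to library. In naive 1, 74 of the 82 members had their lowest value of the 3 naive libraries, while 41.4% of all genes tested did. Control 1 held the lowest control value for 64 members (44.6% of all genes), and trained 3 the lowest trained value for 46 (31.8% of all genes). Rpl26, tied at 0 with other libraries, is counted in the numbers for naive 1 and control 1. Expressed as log2 deviation from the mean over all 9 libraries, the median member stood at -0.02, 0.02 and -0.04 in the trained libraries, at -0.05, 0.11 and 0.13 in the naive libraries, and at -0.13, -0.03 and 0.01 in the control libraries. The libraries farthest out were thus naive 3 and naive 2 on the high side and control 1 on the low side, and naive 1 lay below all 3 trained libraries. Members above their own mean numbered 23, 49 and 17 in the trained libraries, 14, 71 and 80 in the naive libraries, and 9, 26 and 45 in the control libraries. The SD of this median between libraries of one group was 0.08 log2 units. A group difference of the median member must be read against that spread, because 82 members that vary together are not 82 independent measurements. The spread of a single member between libraries of one group (pooled SD of log2(FPKM + 1)) had a median of 0.103, close to the 0.0937 of all genes, and among members it was largest for Rpl26 (1.15), Rpl34 (0.249) and Rpl30 (0.245).

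**Figure D4:**
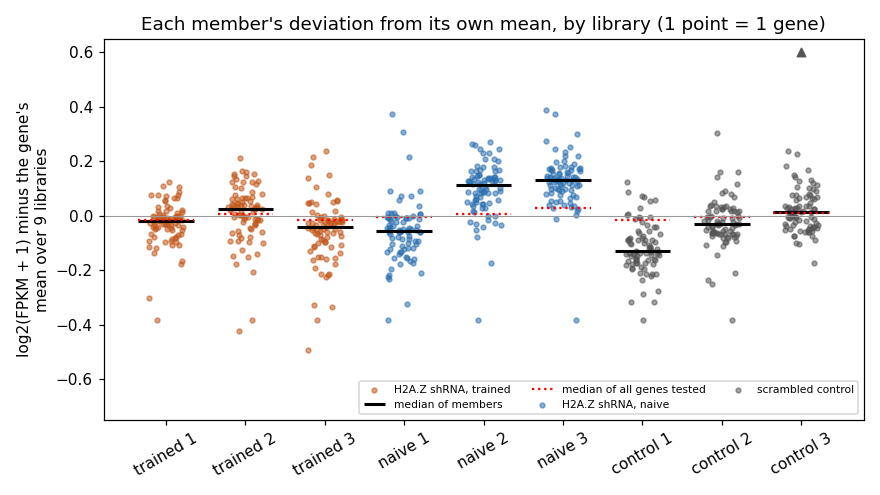
The log2 deviation of each member from its mean over all libraries (y axis) is drawn as a point for each library, from trained to naive to control, with black bars for the members' median and red dotted bars for the median of all genes tested; triangles mark values beyond the axis. The medians reach 0.13 in naive 3 and -0.13 in control 1, and the naive libraries alone span -0.05 to 0.13.

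Naive against control sets untrained mice with the H2A.Z virus against mice with the scrambled hairpin. Most members had higher values in naive libraries, and none of these differences passed the test. The median log2 fold change of the 82 members was 0.10, against 0.02 for all genes tested, and 76 members lay above 0 (55.1% of all genes did). At an adjusted p under 0.05, 0 members passed, as did 0 of all genes (0%; limma, Benjamini-Hochberg over 12327 genes; smallest adjusted p of a member 0.238). At an unadjusted p under 0.05, 15 members were higher (9.81% of all genes) and 0 were lower (5.69% of all genes). Naive and control values did not overlap, with naive higher, in 11 members (11.2% of all genes), a share close to that of all genes, and with naive lower in 0 (8.23%). The median of the large subunit genes was 0.08 (45 of 49 above 0) and that of the small subunit genes 0.12 (31 of 33 above 0). The 14 members of at least 100 FPKM had a median of 0.13 (14 above 0) and the 21 under 20 FPKM one of 0.03 (16 above 0). By shared sequence, the 12 members with under 50% of their stretches in another gene had a median of 0.14 (12 above 0) and the 30 with 100% one of 0.05 (25 above 0).

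Among members with the smallest p, Rpl22, a large subunit protein that also binds RNA outside the ribosome (chr4:152325742-152334071), had 36.7, 38.5 and 37.8 FPKM in naive libraries, against 31.8, 33.6 and 34.1 FPKM in control libraries. Every naive value lay above every control value, with a log2 fold change of 0.18 (SE 0.05, limma adjusted p = 0.238). Rps2, a protein at the entry of the messenger RNA channel (chr17:24718116-24721929), had 44.2, 46.5 and 48.8 FPKM in naive and 39.0, 37.4 and 41.2 FPKM in control libraries. These did not overlap either, with a log2 fold change of 0.24 (SE 0.06, limma adjusted p = 0.238). Rpl4 had 199, 209 and 219.8 FPKM in naive and 184, 189 and 189.7 FPKM in control libraries, again without overlap (0.16, SE 0.05, limma adjusted p = 0.245). Rps7, needed for processing of the small subunit RNA, had 31.7, 34.7 and 32.9 FPKM in naive and 30.7, 30.2 and 30.4 FPKM in control libraries, and a log2 fold change of 0.12. Rpl3, at the peptidyl transferase centre, gave 0.11, Rpl7a gave 0.21 and Rps4x, encoded on the X chromosome, 0.15. The adjusted p of these last 4 members lay from 0.275 to 0.301 in limma. Coding stretches shared with another gene made up 31.0% of Rpl22, 84.1% of Rps2, 20.3% of Rpl4 and 95.3% of Rps7, so the values of those with a high share are less certain.

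The stalk genes had higher means in naive than in control libraries. Rplp0, the base of the stalk, had 70.1 ± 4.59 FPKM in naive and 61.7 ± 4.39 FPKM in control libraries (SD, n = 3 each), and a log2 fold change of 0.18 (limma adjusted p = 0.280). Rplp1 gave 0.16 (limma adjusted p = 0.345) and Rplp2 0.18 (limma adjusted p = 0.365). For Rplp0 the groups did not overlap, while for Rplp1 and Rplp2 they did. Rpsa, the laminin receptor protein of the small subunit, gave 0.15 (limma adjusted p = 0.314), and Rps27a, whose product is made fused to ubiquitin, 0.14 (limma adjusted p = 0.553). The largest fold changes on the log2 scale, leaving out Rpl26, were those of Rps4l, the transcribed pseudogene, at 0.34 (limma adjusted p = 0.313), and Rpl30, at 0.28 (limma adjusted p = 0.453). Rpl30 had 37.1, 31.3 and 41.99 FPKM in naive and 26.1, 31.4 and 32.6 FPKM in control libraries, which overlapped. The copy row Gm12191, which shares 83.1% of the stretches of Rpl30, had the opposite sign (-0.34, limma adjusted p = 0.531). A change of Rpl30 thus cannot be told apart from a different placement of shared reads. For 79 members the 95% confidence interval of the fold change lay within 1.5-fold in either direction.

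**Figure D5:**
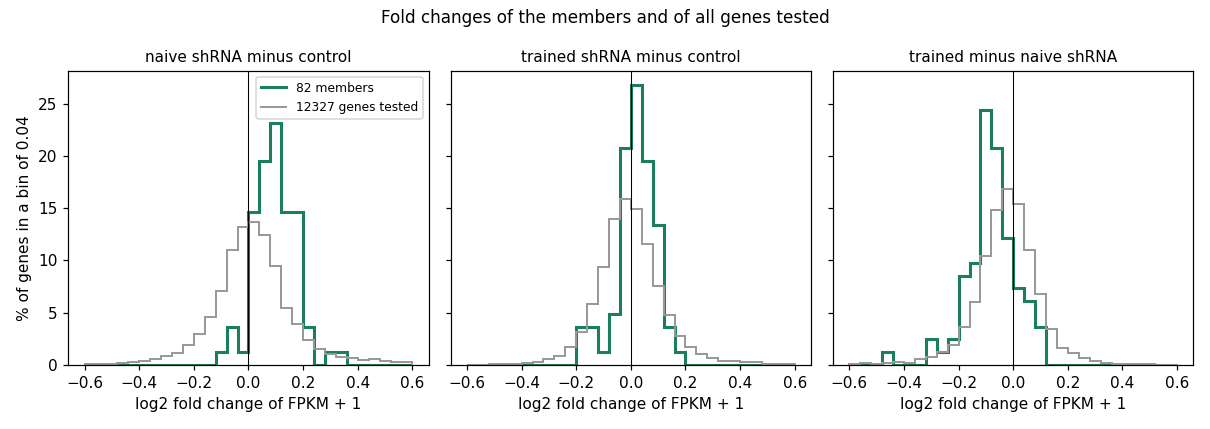
Distributions of the log2 fold change on log2(FPKM + 1) are shown for the members and for all 12327 genes tested, as a percentage of each, with a panel for each pair of groups. The member median is 0.10 for naive against control, 0.02 for trained against control and -0.08 for trained against naive, beside 0.02, -0.01 and -0.02 for all genes.

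Several lists of cell type markers also lay to one side in this comparison, and others were mixed. All 16 microglial markers had a log2 fold change above 0 (median 0.53), with sums of 399 to 818 FPKM in naive and 307 to 379 FPKM in control libraries. All 17 markers of dentate granule neurons also lay above 0 (median 0.74), with sums of 292 to 375 FPKM in naive and 156 to 302 FPKM in control libraries. CA1 pyramidal markers lay below 0 in 10 of 11 (median -0.31). The 5 choroid plexus and ependymal markers tested lay below 0, with sums of 13.1 to 32.6 FPKM in naive and 41.7 to 803 FPKM in control libraries over the whole list of 10. The 13 oligodendrocyte markers also lay below 0 (median -0.24). Interneuron markers lay above 0 in 1 of 12 and astrocyte markers in 8 of 11. Endothelial and mural markers did so in 9 of 12, and CA2 and CA3 pyramidal markers in 3 of the 6 tested. Lymphocyte markers, of which 2 reached the level to be tested, had sums of 3.66 to 15.2 FPKM in naive and 1.27 to 2.92 FPKM in control libraries. Map3k15, a CA2 and CA3 marker below the level to be tested, was at 0 in every library. The part of these markers in the values of the members was not tested. Without control 1 and naive 2 the members' median was 0.04 and 56 members lay above 0.

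Trained against control sets mice with the H2A.Z virus and training against mice with the scrambled hairpin. It shares its control libraries with naive against control, so the comparisons are not independent. Most members lay close to their control level: the median log2 fold change was 0.02 (-0.01 for all genes), with 53 members above 0 (47.2% of all genes). At an adjusted p under 0.05, 0 members passed (0.00811% of all genes, limma; smallest adjusted p of a member 0.637). At an unadjusted p under 0.05, 1 member was higher (3.92% of all genes) and 2 were lower (3.8% of all genes). Groups did not overlap in 11 members with trained higher (6.4% of all genes) and in 3 with trained lower (6.08% of all genes). Without control 1 the median was -0.02 and 33 members lay above 0, so the direction rests on that library. All 16 microglial markers (sums of 398 to 613 FPKM in trained and 307 to 379 FPKM in control libraries) and all 17 dentate granule markers (207 to 346 FPKM in trained and 156 to 302 FPKM in control libraries) lay above 0 in this comparison too. Lymphocyte marker sums were 5.59 to 88.8 FPKM in trained and 1.27 to 2.92 FPKM in control libraries, without overlap. Choroid plexus and ependymal sums were 47.1 to 109.5 FPKM in trained and 41.7 to 803 FPKM in control libraries. CA1 pyramidal markers lay above 0 in 1 of 11, interneuron markers in 1 of 12 and oligodendrocyte markers in 3 of 13. Astrocyte markers did so in 4 of 11, endothelial and mural markers in 5 of 12, and CA2 and CA3 markers in 2 of 6. For all of these markers, their part in the values of the members was not tested.

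The members whose trained values all lay below the control values were Rps29, Rpl31 and Rps28. Rps29, a small zinc finger protein of the small subunit (chr12:69157722-69159186), had 10.7, 10.999 and 11.4 FPKM in trained and 13.2, 11.5 and 12.8 FPKM in control libraries. Every trained value lay below every control value, with a log2 fold change of -0.17 (SE 0.06, limma adjusted p = 0.637). Rpl31, at the exit tunnel (chr1:39367842-39371911), had 12.99, 11.9 and 11.8 FPKM in trained and 13.3, 13.5 and 14.4 FPKM in control libraries, without overlap (-0.15, limma adjusted p = 0.642). The copy Rpl31-ps12, which shares much of the sequence of Rpl31, had 83.2, 84.7 and 73.0 FPKM in trained and 77.5, 80.4 and 87.2 FPKM in control libraries, which overlapped. Rps28 gave -0.16 (limma adjusted p = 0.671) and Rpl28 -0.16 (limma adjusted p = 0.717). Rps28 had 34.9, 32.1 and 38.73 FPKM in trained and 38.75, 40.5 and 39.1 FPKM in control libraries, so its ranges nearly touched. Other genes share 100% of the coding stretches of Rps29, Rpl31, Rps28 and Rpl28, so their values are less certain. On the other side, Rps26, a protein of the messenger RNA exit channel, had 103.9, 109.99 and 109.04 FPKM in trained and 99.1, 101.3 and 102.1 FPKM in control libraries, without overlap, and a log2 fold change of 0.09 (limma adjusted p = 0.642). Rps20 gave 0.19, Rpl7a 0.16, Rps25 0.12 and Rpl3 0.09, with limma adjusted p from 0.666 to 0.682. The 5 paralogs gave log2 fold changes from -0.13 to 0.11 (smallest limma adjusted p = 0.762).

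Trained against naive, the comparison that differs in training within the H2A.Z virus, had lower trained values for most members, and none of these differences passed the test. Its naive libraries also enter naive against control, so a high naive library moves both. The median log2 fold change was -0.08 (-0.02 for all genes), with 13 members above 0 (41.3% of all genes) and 68 below 0. Rpl26, listed at 0 in all trained and naive libraries, lay on neither side. At an adjusted p under 0.05, 0 members passed (0.00811% of all genes, limma; smallest adjusted p of a member 0.556). At an unadjusted p under 0.05, 0 members were higher (2.74% of all genes) and 8 were lower (5.53% of all genes). Groups did not overlap in 1 member with trained higher (5.79% of all genes) and in 12 with trained lower (9.16% of all genes). The 1 member with trained higher was Rpl27, named after its values were seen, which had 6.99, 7.31 and 7.32 FPKM in trained and 6.75, 6.62 and 6.97 FPKM in naive libraries. Members above 0 numbered 5 without naive 1 and 24 without naive 3. By scaling, the number was 20 with median-of-ratios factors, 21 with quantile normalization and 23 with equal sums outside small RNA rows. Of the microglial markers 2 of 16 and of the dentate granule markers 1 of 17 lay above 0 here. CA1 pyramidal markers lay above 0 in 9 of 11 (median 0.24), interneuron markers in 9 of 12 and oligodendrocyte markers in 9 of 13. Astrocyte markers did so in 1 of 11, endothelial and mural markers in 3 of 12, and CA2 and CA3 markers in 3 of 6. All 5 choroid plexus and ependymal markers tested lay above 0, with sums over their list of 47.1 to 109.5 FPKM in trained and 13.1 to 32.6 FPKM in naive libraries, without overlap. Lymphocyte marker sums were 5.59 to 88.8 FPKM in trained and 3.66 to 15.2 FPKM in naive libraries. The part of these markers in the values of the members was not tested.

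Rps2 had 39.4, 41.4 and 36.1 FPKM in trained libraries, against 44.2, 46.5 and 48.8 FPKM in naive libraries. Every trained value lay below every naive value, with a log2 fold change of -0.25 (SE 0.06, limma adjusted p = 0.556). Rps29 had 10.7, 10.999 and 11.4 FPKM in trained and 12.9, 12.3 and 13.1 FPKM in naive libraries, without overlap (-0.20, SE 0.06, limma adjusted p = 0.556). Rps4l, the transcribed pseudogene, had 12.4, 16.03 and 12.1 FPKM in trained and 19.5, 17.1 and 20.5 FPKM in naive libraries, with the largest fold change among members on the log2 scale (-0.47, SE 0.14, limma adjusted p = 0.556). Rpl22 (-0.14), Rpl31 (-0.19), Rpl27a (-0.13) and Rpl11 (-0.21) did not overlap between trained and naive libraries either, with limma adjusted p from 0.589 to 0.591. Rpl11 belongs to the group that binds the p53 regulator Mdm2 when ribosome assembly is disturbed. Rpl34 (-0.30) and Rpl30 (-0.30) had larger fold changes but overlapping values: Rpl30 had 28.9, 23.5 and 37.7 FPKM in trained and 37.1, 31.3 and 41.99 FPKM in naive libraries. Gm12191, the copy row of Rpl30, had the opposite sign (0.46, limma adjusted p = 0.639). Rpl34-ps1, the copy row of Rpl34 and of higher level, gave -0.08 (limma adjusted p = 0.813). The stalk genes gave -0.08 for Rplp0, -0.13 for Rplp1 and -0.22 for Rplp2, and of these Rplp1 alone did not overlap between trained and naive libraries. The row Rplp2-ps1, named as a pseudogene of Rplp2 and of higher level, gave -0.04 (limma adjusted p = 0.881). Rpsa gave -0.09 and Rps27a -0.10 (0.012 without naive 3). For the 7 members from Rpl34 to Rps27a named here, the limma adjusted p lay from 0.591 to 0.828.

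Taking both H2A.Z shRNA groups against control, 6 libraries against 3, the members' median was 0.06 (0.01 for all genes), and 71 lay above 0 (52.1% of all genes), or 46 without control 1 and naive 2. At an adjusted p under 0.05, 0 members passed (0% of all genes, limma; smallest adjusted p of a member 0.382). At an unadjusted p under 0.05, 8 members were higher (7.11% of all genes) and 0 lower (5.26% of all genes). All trained and naive values lay above all control values in 5 members (2.94% of all genes), and below them in 0 (2% of all genes). These 5, named after their values were seen, were Rps26, Rpl4, Rpl7a, Rplp0 and Rps7. Rps26 had 103.9, 109.99 and 109.04 FPKM in trained, 106.1, 108.6 and 109.5 FPKM in naive and 99.1, 101.3 and 102.1 FPKM in control libraries, and a log2 fold change of 0.10 (SE 0.03). Its pooled SD of 0.0314 was the smallest of any member. Rpl4 gave 0.11, Rpl22 0.11, Rpl3 0.10, Rpl7a 0.18, Rplp0 0.14, Rps4x 0.12 and Rps9 0.16. The limma adjusted p of these 8 lay from 0.382 to 0.400. Rps20 gave 0.18 (limma adjusted p = 0.414) and Rps27l 0.15 (limma adjusted p = 0.479). The 6 members of highest level lay from -0.02 to 0.11 and the 5 of lowest level other than Rpl26 from -0.08 to 0.02. Sums of lymphocyte markers were 5.59 to 88.8 FPKM in trained and 3.66 to 15.2 FPKM in naive libraries. Both ranges lay above the 1.27 to 2.92 FPKM of control libraries. All 16 microglial markers lay above 0 (sums of 398 to 818 FPKM in shRNA and 307 to 379 FPKM in control libraries). So did all 17 dentate granule markers. Above 0 lay 1 of 11 CA1, 1 of 12 interneuron, 1 of 13 oligodendrocyte and 0 of 5 choroid plexus and ependymal markers. Astrocyte markers did so in 5 of 11, endothelial and mural markers in 9 of 12, and CA2 and CA3 markers in 2 of 6. The part of these markers in the values of the members was not tested. For 81 members the 95% confidence interval of this fold change lay within 1.5-fold in either direction.

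Some paralogs of ribosomal proteins can replace their partner in the ribosome, so the log2 ratio of paralog to partner was followed in each library. Rps27l stood above Rps27, with a log2 ratio of 1.68 ± 0.06 in trained, 1.55 ± 0.11 in naive and 1.42 ± 0.18 in control libraries (SD, n = 3 each). All trained ratios lay above all control ratios, with a difference of 0.26 (exact two-sided permutation test, p = 0.1, the smallest that 3 against 3 allows). Rps27l itself had 14.7, 17.0 and 14.5 FPKM in the trained libraries, 14.1, 18.03 and 17.0 FPKM in the naive libraries and 15.1, 12.6 and 14.8 FPKM in the control libraries, which overlapped. Rpl22l1 stood above Rpl22, at 0.80 ± 0.03 in trained, 0.76 ± 0.07 in naive and 0.89 ± 0.08 in control libraries, and both H2A.Z shRNA groups against control gave -0.12 (exact two-sided permutation test, p = 0.0714). Rpl36al stood above Rpl36a by 3.47 ± 0.23 in trained, 3.51 ± 0.23 in naive and 3.34 ± 0.13 in control libraries, and Rpl7l1 below Rpl7 by -2.74 ± 0.05 in trained, -2.79 ± 0.09 in naive and -2.73 ± 0.18 in control libraries. Over the 4 pairs and 4 comparisons, 16 tests, the smallest p adjusted with Benjamini-Hochberg was 0.533 (exact permutation tests). Rps27, Rpl36a and Rpl36al have no coding stretch of 50 bases of their own. Shared stretches made up 84.2% of Rpl22l1, 77.5% of Rpl7, 48.3% of Rps27l, 31.0% of Rpl22 and 21.9% of Rpl7l1. The copy row Gm15421 lay above Rpl22l1 in all 9 libraries. All these ratios are thus uncertain in level.

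Gnb2l1 and Fau, whose products belong to the ribosome but which the naming leaves out, showed values in the same range. Gnb2l1 encodes Rack1, a scaffold on the small subunit, and had 98.5, 110.2 and 99.5 FPKM in the trained libraries, 105, 119.9 and 113 FPKM in the naive libraries and 94.6, 99.5 and 101.9 FPKM in the control libraries. Naive and control values did not overlap (0.19, SE 0.07, limma adjusted p = 0.265). Fau, which encodes a small subunit protein fused to a ubiquitin-like one, had 35.6, 39.2 and 37.1 FPKM in the trained libraries, 32.6, 40.98 and 40.8 FPKM in the naive libraries and 34.0, 39.97 and 37.2 FPKM in the control libraries, which overlapped.

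Gene lists of the same pathway, chosen with earlier results of these data known, were read by their counts. Other TOP messenger RNAs, mostly elongation and initiation factors, lay above 0 in 18 of 19 for naive against control (median 0.07), in 16 of 19 for trained against control (0.03) and in 3 of 19 for trained against naive (-0.05). Among them Eif4b, a helicase cofactor of initiation, had 51.2, 51.6 and 54.1 FPKM in naive and 46.1, 47.2 and 47.1 FPKM in control libraries, without overlap (0.16, limma adjusted p = 0.234). Ribosome assembly factors lay above 0 in 52 of 62 for naive against control (median 0.06), 40 of 62 for trained against control (0.04) and 21 of 62 for trained against naive (-0.02). Nop58, a core protein of the particles that methylate ribosomal RNA, had 18.03, 17.4 and 17.0 FPKM in trained, 17.3, 16.5 and 18.01 FPKM in naive and 15.1, 15.1 and 14.4 FPKM in control libraries. Both H2A.Z shRNA groups of Nop58 lay wholly above control (0.21, limma adjusted p = 0.272). Of RNA polymerase I, which makes ribosomal RNA, 12 of 19 genes lay above 0 for naive against control. It had 13 of 19 above 0 for trained against control and 6 of 19 for trained against naive. Its subunit gene Znrd1 had 14.8, 15.1 and 14.8 FPKM in naive and 12.9, 11.4 and 11.5 FPKM in control libraries (0.30, limma adjusted p = 0.188).

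Lists farther from the cytosolic ribosome had other counts against control. Of the initiation factors outside the TOP class, 21 of 35 lay above 0 for naive against control and 12 of 35 for trained against control. Mitochondrial ribosomal proteins, which serve the separate ribosomes of mitochondria, lay above 0 in 34 of 76 for naive against control (median 0.00) and in 17 of 76 for trained against control (-0.06). Subunits of the respiratory chain, which are also short and abundant messenger RNAs, lay above 0 in 13 of 73 for naive against control (-0.06) and in 1 of 73 for trained against control (-0.11). Proteasome subunits lay above 0 in 17 of 31 for naive against control and in 4 of 31 for trained against control, tRNA synthetases in 10 of 23 and 8 of 23, and mTOR pathway and TOP regulators in 18 of 32 in both. For trained against naive, 7 of 35 initiation factors outside the TOP class, 16 of 76 mitochondrial ribosomal proteins and 13 of 73 respiratory chain subunits lay above 0. So did 4 of 31 proteasome subunits, 11 of 23 tRNA synthetases and 18 of 32 mTOR pathway and TOP regulators. Lower trained than naive values were thus not particular to the members and the TOP genes. Tsc2, a brake on mTOR, had 14.0, 12.9 and 12.7 FPKM in trained and 15.02, 16.4 and 16.3 FPKM in control libraries, without overlap (-0.26, limma adjusted p = 0.504). In each of these lists 0 genes passed at an adjusted p under 0.05 in any of the 4 comparisons (limma). At an unadjusted p under 0.05, 9.81% of all genes were higher and 5.69% lower in naive than in control libraries. Against that background, 6 of the 62 assembly factors were higher and 0 lower, a share of higher genes close to that of all genes. Among the TOP genes 4 of 19 were higher and 0 lower, and of the polymerase genes 4 of 19 and 0. Initiation factors outside the TOP class had 1 higher and 1 lower, mitochondrial ribosomal proteins 3 and 0, respiratory chain subunits 2 and 2, proteasome subunits 0 and 1, tRNA synthetases 1 and 2, and mTOR pathway and TOP regulators 2 and 0.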

How the data were processed

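RNA was measured in 9 libraries in 3 groups of 3. Per the labels' protocols, libraries were directional and polyA-selected (NEBNext, 1 µg of total RNA) and read from both ends, 50 bp each. The authors used FastQC, TopHat 1.4.0, Cufflinks and Cuffdiff on mm10, per the submitters' processing notes. They deposited a table of FPKM per gene and library, with no counts. Not given in the sources used here are the step that wrote the table, its annotation and the handling of reads that fit several places. TopHat and Cufflinks may place or share such reads, which bears on most members.

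Of 24489 rows, 27 had names turned into dates and 5651 were 0 in every library. Value columns of no sample numbered 0. Values were taken as log2(FPKM + 1), so fold changes of low genes are understated, and the 12327 genes that averaged 1 FPKM or more were fitted with limma 3.58.1 (R 4.3.3; all 3 groups, trend in the prior variance, two-sided, Benjamini-Hochberg over all genes tested, threshold 0.05). Comparisons were trained against control, naive against control, trained against naive, and both H2A.Z shRNA groups against control. P-values measure the spread between libraries labelled as biological replicates. The fit was tested on simulated data. Depth was estimated from steps between low FPKM values, so no counting interval is given. Exact permutation tests (Python 3.11.15, scipy 1.17.1) were used for paralog ratios; pandas 2.3.3, numpy 2.4.6 and matplotlib 3.10.9 served tables and figures. Shared stretches and coordinates came from GENCODE M21 on GRCm38 (the assembly of mm10), promoter windows from RefSeq (GRCm38.p6), of which 61 members matched by symbol.

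The members, gene lists, tests and alternatives were chosen with earlier results of these data known. Fold changes could be printed, by rule, in each comparison for the 8 members with the smallest p, the 4 with the largest fold change, the 6 highest and 6 lowest in level, paralogs, stalk genes, Rpsa, Rps27a and related genes, and up to 3 genes of each list. Not all of these are printed in every comparison, some are given as ranges, and Rpl26 has none because it is listed at 0. Fold changes of the rows Gm12191, Rpl34-ps1 and Rplp2-ps1 are given outside this rule. Alternatives were other scalings, filters, a pseudocount of 0.1, weights per library, a robust prior, fits of only the groups compared, and libraries left out.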

Additional observations from a re-analysis of the deposited data

How the results depend on the processing

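The number of members past the adjusted threshold was 0 in all 4 comparisons under all 20 alternatives, with 0.141 as the smallest limma adjusted p of any member in any of them. The members' median log2 fold change ranged from 0.04 to 0.15 for naive against control, from -0.02 to 0.05 for trained against control, from -0.14 to -0.04 for trained against naive, and from 0.01 to 0.09 for both H2A.Z shRNA groups against control. Counts of members above 0 moved more. Trained against control had 33 without control 1, alone or together with naive 2, and 33 to 64 when each library was left out in turn. Trained against naive had 23 with equal sums, 21 with quantile normalization, 20 with median-of-ratios scaling, and 5 to 24 when each library was left out. Both H2A.Z shRNA groups against control had 46 without control 1 and naive 2. Signs turned only where the difference was small. When each library was left out, the Rpl36al to Rpl36a ratio for trained against naive ranged from -0.17 to 0.081, and the Rpl7l1 to Rpl7 ratio from -0.12 to 0.043 for naive against control, from -0.069 to 0.096 for trained against control and from -0.10 to 0.069 for both H2A.Z shRNA groups against control. Likewise Rps27a ranged from -0.23 to 0.012 for trained against naive, and for both H2A.Z shRNA groups against control H2afz ranged from -0.063 to 0.0103 and H2afv from -0.046 to 0.038. The cause was not tested. Of 50 tests of single genes, 47 kept 1 sign throughout. Precision is limited by 3 libraries per group and by an unknown placement of shared reads, and low members rest on few fragments (Rps27, 28 to 56 per library). No paired analysis was possible because the labels give no replicate numbers shared between groups.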

Other observations

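Introns of ribosomal protein genes hold small nucleolar RNAs, and their rows behaved unlike those of their hosts. In GENCODE M21, 29 members hold 57 intronic snoRNA genes, of which 32 had a row in the table. Of these rows 15 had a mean of at least 1 FPKM, and 15 were listed at 0 in every library. Snord42b, 69 bases long and inside Rpl23a, was listed at 94786, 0 and 78894 FPKM in the trained libraries, at 0, 0 and 108454 FPKM in the naive libraries and at 0 in all 3 control libraries, while its host Rpl23a had 34.8, 36.1 and 34.7 FPKM in the trained libraries, 31.2, 37.6 and 38.6 FPKM in the naive libraries and 31.4, 37.3 and 34.97 FPKM in the control libraries. Snora64, 134 bases long and inside Rps2, was the steadier case, with 49.1, 30.3 and 53.4 FPKM in the trained libraries, 68.0, 57.6 and 37.2 FPKM in the naive libraries and 49.5, 51.6 and 17.0 FPKM in the control libraries. No comparison between groups is drawn from these rows.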
